A study of Mus musculus with 6 samples.

Results

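The antioxidant and glutathione genes are a set of 44 mouse genes chosen for their function, out of 18193 genes that have a probe set of their own on the array. They encode the enzymes that remove superoxide and peroxides, the thioredoxin and glutathione systems that recharge them, the NRF2 switch that controls many of their genes, glutathione S-transferases, and Nnt, the mitochondrial transhydrogenase that makes NADPH. A probe set, the group of probes that reads 1 transcript, was annotated to 1 gene alone for 41 of the 44. For each of these genes the probe set with the highest mean log2(signal + 16) over the 6 arrays was used, and all 41 were bright enough to be tested. Prdx1 had 5 probe sets shared with Gm21399, and Prdx5 and Prdx6 had none listed, so these 3 genes have no value here.

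The hearts came from 2 transgenic mouse lines and from controls, with 2 Affymetrix arrays in each of the 3 groups. The high-FASN line had high cardiac expression of FASN, the enzyme that builds palmitate, and the low-FASN line had low cardiac expression. In both lines the transgene was driven by the alpha-MHC promoter, a promoter used in heart muscle cells, and each level is 1 line, so the FASN level and anything else particular to a line cannot be told apart. The controls were B6 mice matched for age, which is not given. All 6 samples are labelled male and C57BL/6J, and the tissue label of all 6, controls included, calls the heart transgenic, so the groups follow the titles. Nothing given here ties the 2 arrays of a group to different hearts, so the p-values reflect only the spread between arrays, possibly a technical one.

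Signal is a linear intensity in arbitrary units, and differences are of mean log2(signal + 16), a scale that shrinks differences of dim genes. A call is an adjusted p below 0.05 in limma's moderated test, two-sided, adjusted over all 22519 tested probe sets. Fasn itself read 2268 and 2104 in high-FASN hearts, 462 and 481 in low-FASN hearts, and 213 and 187 in controls. Arrays of 1 group correlated at 0.987 to 0.990 over the tested probe sets and arrays of different groups at 0.969 to 0.977. The 12 heart muscle markers had signals from 1129 to 38169 over the 6 arrays. Their summed signal was 323410 and 291190 in high-FASN hearts, 231080 and 238710 in low-FASN hearts, and 262670 and 255300 in controls. Fat markers moved too, with 6 of 7 tested higher in high-FASN hearts and 5 of 7 in low-FASN hearts. Of all tested probe sets, 8.18% and 13.5% were higher there. The fat marker sums were 44360 and 40744 in high-FASN hearts, 32377 and 33245 in low-FASN hearts, and 21653 and 21245 in controls. Fibroblast markers summed to 50157 and 49367 in high-FASN hearts, 52236 and 54100 in low-FASN hearts, and 37007 and 36583 in controls. Airway markers summed to 3284 and 3519 in high-FASN hearts, 361 and 302 in low-FASN hearts, and 279.7 and 265 in controls, with no marker of these 4 lists at a value of 0. In whole tissue, fewer cells of a type and less RNA per cell cannot be told apart.

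Cells make superoxide as a by-product of respiration, and heart muscle, packed with mitochondria, makes much of it. Superoxide dismutases turn it into hydrogen peroxide, which catalase, the glutathione peroxidases and the peroxiredoxins remove. Glutathione recharges the glutathione peroxidases and thioredoxin most peroxiredoxins, and both draw their electrons from NADPH. The transcription factor NRF2 (Nfe2l2), held in check by Keap1, switches on many of these genes through a promoter sequence called the antioxidant response element.

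Members changed in both directions in each line. High-FASN hearts had 5 members higher and 7 lower than control. Low-FASN hearts had 4 higher and 14 lower. The 4 members Cat, Gsta4, Gstm2 and Mgst1 were lower in both lines, Txnip and Prdx4 were higher in both by their brightest probe sets, and Gpx3 was higher in high-FASN hearts and lower in low-FASN hearts. Set directly against the low-FASN line, the high-FASN line had 9 members higher and 3 lower. In all, 23 members were called in at least 1 comparison and 18 in none, each by its brightest probe set.

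These counts are read against the whole array. In high-FASN hearts 17.1% of the members were lower, where 6.18% of all tested probe sets were lower, and 12.2% were higher against 8.18% of all. In low-FASN hearts 34.1% of the members were lower against 10.8% of all, and 9.76% were higher against 13.5% of all. Between the lines, 22% of the members were higher in high-FASN hearts against 9.69% of all, and 7.32% were lower against 8.87% of all. The members are bright, however, and bright probe sets were called more often. Among the 2279 tested probe sets with a mean signal of at least 2110, the members' median, 28.9% were lower and 13.1% higher in low-FASN hearts. Of the members, 21 reach this signal, while the members' shares above count the dimmer members too. Shares for those 21 alone are not given here, so the members' shares cannot be read directly against those of the bright probe sets. In high-FASN hearts 15.4% of these bright probe sets were lower and 15.2% higher, and between the lines 29.1% were higher and 12.8% lower in high-FASN hearts. These shares depend on the scaling. After quantile normalization 22.7% of the bright probe sets were lower and 21.8% higher in low-FASN hearts, and 18.8% were higher and 19.4% lower between the lines. Cyclic loess gave 22.1% lower and 20.9% higher in low-FASN hearts, and 20.1% higher and 19.6% lower between the lines. With quantile normalization the members had 13 lower and 4 higher in low-FASN hearts, and 8 higher and 4 lower between the lines.

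**Figure D1:**
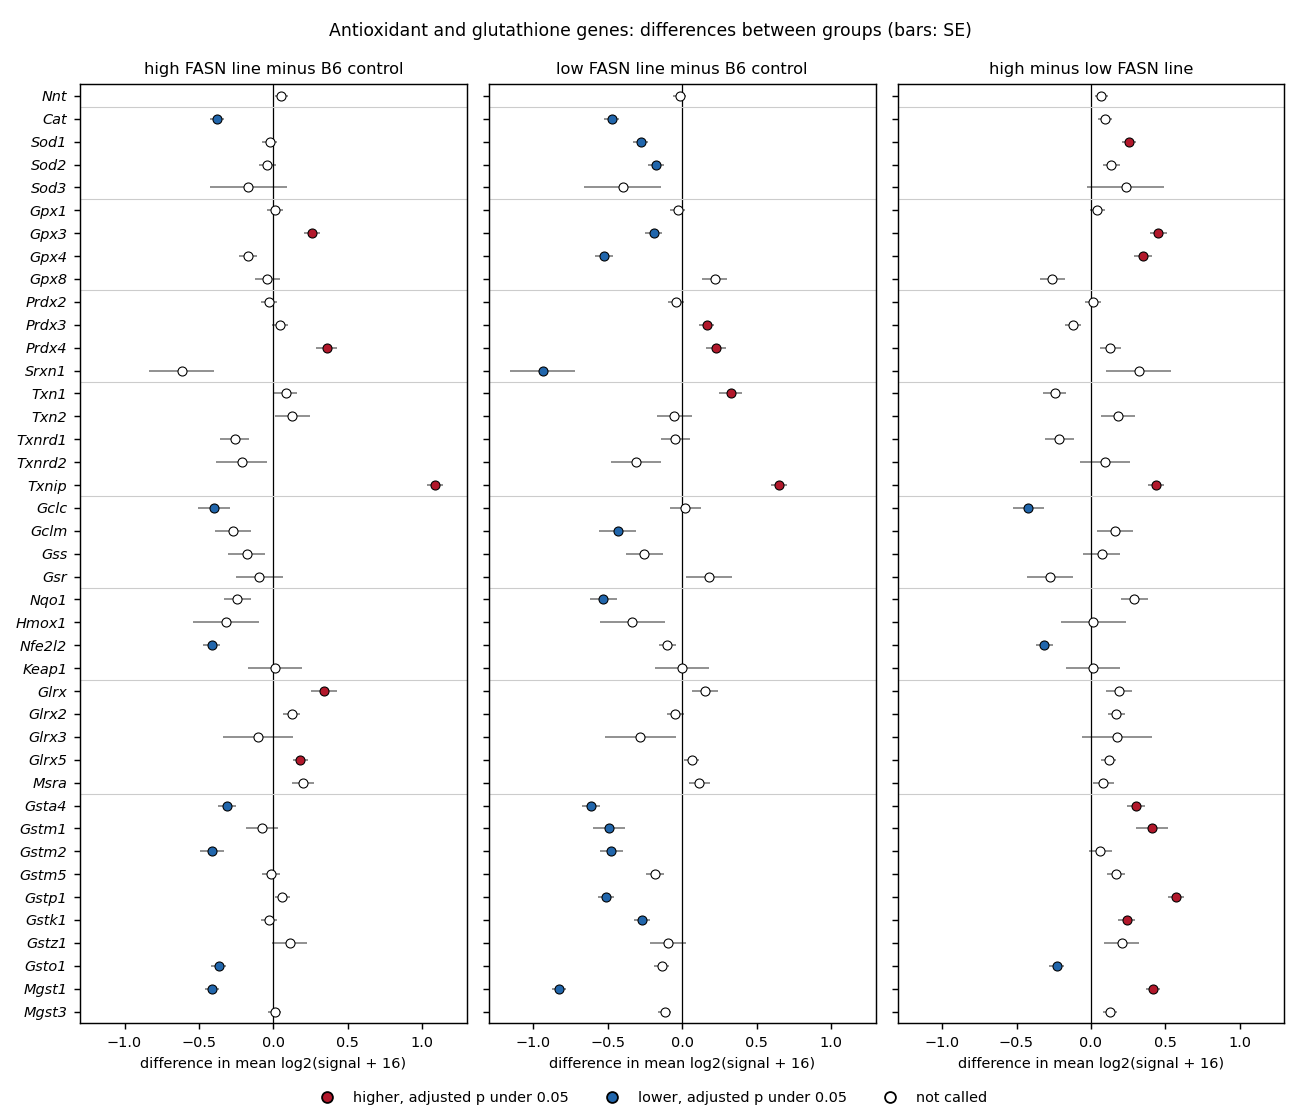
Difference in mean log2(signal + 16) for each of the 41 measured members (rows, grouped by role), with standard errors as bars, in high-FASN hearts against control, the low-FASN line against control, and high-FASN against low-FASN hearts. Red points are called higher and blue points called lower; Txnip stands farthest right against control in both lines, and the glutathione S-transferases at the bottom all lie left of 0 in low-FASN hearts.

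The median member differed by -0.04 in high-FASN hearts, -0.138 in low-FASN hearts and 0.13 between the lines. The same medians over all tested probe sets were 0.0367, 0.0183 and 0.0055, and over the bright ones 0.019, -0.078 and 0.075. Of the 41 members, 33 had a positive difference between the high-FASN and low-FASN lines. After quantile normalization the bright probe sets centred at -0.004 in low-FASN hearts, and there the members' median was -0.097. Spiked-in hybridization controls, the same in every sample, had a median difference of 0.057 in high-FASN hearts, -0.195 in low-FASN hearts and 0.224 between the lines. The 2 arrays of a line also differed. The controls' median signal was 2735 and 2231 in high-FASN hearts, 1908 and 2139 in low-FASN hearts, and 2355 and 2394 in B6 controls. The part of these spiked-in controls in the members' differences was not tested.

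With 2 arrays a group the counts depend on each array. In high-FASN hearts, leaving out either control array gave 1 higher and 5 lower members, and leaving out the first high-line array gave 3 and 8. In low-FASN hearts, 1 higher and 8 lower were called without the first low-line array or without the first control array, 1 and 11 without the second low-line array, and 2 and 10 without the second control array. Between the lines, the counts were 4 higher and 1 lower without the first low-line array, 5 and 0 without the second, and 13 and 4 without the second high-line array. A variance model without an intensity trend gave 1 higher and 1 lower in high-FASN hearts, 1 and 7 in low-FASN hearts, and 4 and 0 between the lines. Centring each array on its median gave 3 higher and 7 lower in high-FASN hearts, and cyclic loess gave 9 higher and 5 lower between the lines. The 2 comparisons with control share the control arrays.

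Nnt lies at chr13:119335527-119409257 of GRCm38.p6 (RefSeq) and encodes the inner-membrane enzyme that uses the mitochondrial proton gradient to make NADPH from NADH. The C57BL/6J substrain is known for a deletion within Nnt that other C57BL/6 substrains lack, so the gene is a known source of difference between mice called B6. Its brightest probe set, 1416105_at, read 10868 and 10900.3 in high-FASN hearts, 10455 and 10283 in low-FASN hearts, and 10588 and 10389 in controls. The 6 values lie close together, and no comparison was called: the log2 difference was 0.05 ± 0.0449 (SE) in high-FASN hearts (limma adjusted p = 0.481), -0.02 ± 0.0449 in low-FASN hearts (adjusted p = 0.829) and 0.07 ± 0.0449 between the lines (adjusted p = 0.324).

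A second Nnt probe set, 1456573_x_at, read 9581 and 10039 in high-FASN hearts, 9576 and 9654 in low-FASN hearts, and 11310 and 11129 in controls. Here all 4 transgenic arrays lay below both control arrays. This probe set was lower in high-FASN hearts by 0.19 (limma adjusted p = 0.0246) and in low-FASN hearts by 0.22 (adjusted p = 0.00804), while the lines differed by 0.03 (adjusted p = 0.724). The 2 probe sets thus gave different answers on the same arrays. The brightest probe sets of Gpx4, Gstm1, Gsto1 and Txn2 share the suffix x of this second Nnt probe set. In the maker's naming that suffix marks probes that may also bind other transcripts. The call in high-FASN hearts was lost in 6 of 14 alternatives and that in low-FASN hearts in 5 of 14, among them either control array left out for the high-FASN line, and either low-line array or the first control array left out for the low-FASN line.

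The third Nnt probe set, 1432608_at, was too dim to be tested, at 18.7 and 43.7 in high-FASN hearts, 21.8 and 26.2 in low-FASN hearts, and 21.4 and 37.0 in controls. The other 2 stood at the 98.2 and 98.1 percentile of mean signal among the tested probe sets. Nnt was thus read brightly in all 3 groups. Where these probe sets lie relative to the deletion is not given here, so their signal checks neither the substrain nor the protein.

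**Figure D2:**
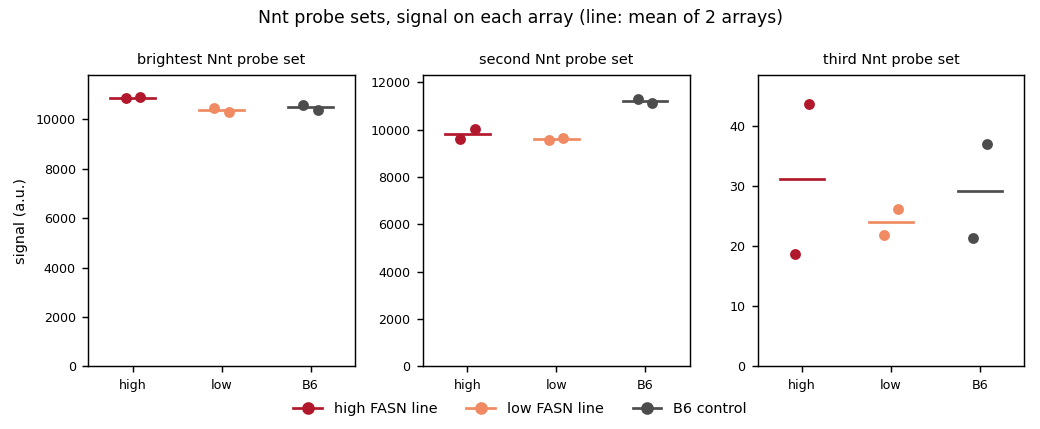
Signal in arbitrary units (linear axes from 0) of the 3 Nnt probe sets on each array, with the high-FASN line, the low-FASN line and the B6 controls from left to right and a line at the mean of 2 arrays. The brightest reads between 10283 and 10900 on all 6 arrays, the second is lower in both lines than in controls, and the third is dim throughout.

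Among the enzymes that act on superoxide and peroxide directly, catalase was lower in both lines. Cat, the peroxisomal enzyme that splits hydrogen peroxide, read 6798 and 6639.7 in high-FASN hearts, 6393 and 6178 in low-FASN hearts, and 8748 and 8728 in controls. Every transgenic array was below both controls. The difference was -0.38 ± 0.0475 (SE) in high-FASN hearts (limma adjusted p = 0.000914) and -0.47 ± 0.0475 in low-FASN hearts (adjusted p = 0.000149), and 0.10 ± 0.0475 between the lines, which was not called (adjusted p = 0.197). A second Cat probe set was again lower in low-FASN hearts, by 0.47 (adjusted p = 0.000257), but gave -0.11 in high-FASN hearts (adjusted p = 0.195) and was called higher in high-FASN than low-FASN hearts, by 0.36 (adjusted p = 0.00192).

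Of the 3 dismutases, Sod1 and Sod2 were lower in low-FASN hearts. Sod1, the cytosolic copper-zinc enzyme, read 7736 and 8181 in high-FASN hearts, 6698 and 6619 in low-FASN hearts, and 8183 and 7988 in controls. The low-line arrays lay below all 4 others, and the high-FASN line overlapped with control. Sod1 was lower in low-FASN hearts by 0.28 (limma adjusted p = 0.00335) and higher in high-FASN than low-FASN hearts by 0.26 (adjusted p = 0.00759), the second call being lost without either low-line array and after quantile normalization. A second bright probe set, 1459976_s_at, read 7211 and 6675 in high-FASN hearts, 6284 and 6489 in low-FASN hearts, and 8249 and 7651 in controls. It was again lower in low-FASN hearts, by 0.31 (adjusted p = 0.00434), but gave 0.12 between the lines, not called (adjusted p = 0.195), and its high-line arrays lay below both controls, at -0.20 (adjusted p = 0.0561). A dim Sod1 probe set, 1440222_at, read 77.4 and 73.2 in high-FASN hearts, 152 and 128 in low-FASN hearts, and 55.7 and 67.9 in controls, and was higher in low-FASN hearts by 1.004 (adjusted p = 0.00631) and lower in high-FASN than low-FASN hearts by 0.77 (adjusted p = 0.0282), against the direction of the bright ones.

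Sod2, the mitochondrial manganese enzyme, read 15127 and 14198 in high-FASN hearts, 13164 and 13500.2 in low-FASN hearts, and 14491 and 15668 in controls. Its low-line values were the lowest, with a difference of -0.18 from control (limma adjusted p = 0.0447). Of 16 alternatives 10 lost this call, each of the 4 arrays left out in turn among them. The dimmer 1454976_at and 1417194_at were also lower in low-FASN hearts, by 0.21 and 0.69 (adjusted p = 0.0281 and 0.011). There 1417193_at gave -0.18, not called (adjusted p = 0.0664). The brightest Sod2 probe set gave 0.14 between the lines, not called (adjusted p = 0.121), where the probe sets 1417193_at and 1417194_at were higher in high-FASN than low-FASN hearts by 0.25 and 0.57 (adjusted p = 0.0219 and 0.0337) and 1454976_at gave 0.01, not called (adjusted p = 0.913). Sod3, the secreted dismutase, was dim and not called in any comparison.

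Glutathione peroxidases use glutathione to reduce peroxides. Gpx3, the form secreted into plasma, read 2644 and 2578 in high-FASN hearts, 1905 and 1899.6 in low-FASN hearts, and 2154 and 2197 in controls. The 3 groups did not overlap, with controls in the middle. Gpx3 was higher in high-FASN hearts by 0.26 (limma adjusted p = 0.0124), lower in low-FASN hearts by 0.19 (adjusted p = 0.0307), and the lines differed by 0.45 ± 0.0547 (SE, adjusted p = 0.000773). The difference between the lines was called in all 15 alternatives, while both calls against control were lost when either control array was left out, and that of the low-FASN line also without either low-line array.

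Gpx4, which repairs oxidised lipids in membranes and guards against ferroptosis, read 11405 and 10181 in high-FASN hearts, 8362 and 8537 in low-FASN hearts, and 12428 and 11867 in controls. The low-line arrays were the lowest. Gpx4 was lower in low-FASN hearts by 0.52 (limma adjusted p = 0.000321) and higher in high-FASN than low-FASN hearts by 0.35 (adjusted p = 0.00437), and a second probe set gave -0.53 and 0.42 for the same comparisons (adjusted p = 0.000169 and 0.00112). Without the first low-line array the difference between the lines was no longer called. In high-FASN hearts its difference of -0.17 was not called (adjusted p = 0.0927). Gpx1, the abundant cytosolic form, read between 4130 and 4373 on all 6 arrays and was not called, nor was Gpx8, the form of the endoplasmic reticulum.

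Peroxiredoxins are abundant peroxide scavengers, and of the 3 measured, Prdx3 and Prdx4 were called. Prdx3, the mitochondrial form, read 7284 and 7289 in high-FASN hearts, 8202 and 7639.6 in low-FASN hearts, and 7211 and 6921 in controls. It was higher in low-FASN hearts by 0.16, just past the threshold (limma adjusted p = 0.0498), and 8 of 15 alternatives lost the call, each of the 4 arrays left out in turn among them. Prdx2, a cytosolic form, was not called.

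Prdx4, the form of the secretory pathway, had probe sets that went opposite ways. The brightest read 1626 and 1455 in high-FASN hearts, 1391 and 1418 in low-FASN hearts, and 1197 and 1197 in controls and was higher in high-FASN hearts by 0.36 (limma adjusted p = 0.0095) and in low-FASN hearts by 0.23 (adjusted p = 0.0426). The second, 1416166_a_at, read 331 and 442 in high-FASN hearts, 499 and 493 in low-FASN hearts, and 585 and 581 in controls, and was lower in high-FASN hearts by 0.59 (adjusted p = 0.0141). Which of the 2 reads the main transcript is not given here, so Prdx4 has no settled direction. Its calls against control were also lost when either control array was left out, and that of the low-FASN line without either low-line array.

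Srxn1, sulfiredoxin, revives over-oxidised peroxiredoxins and is a classic NRF2 target. It read 241 and 191 in high-FASN hearts, 132 and 215 in low-FASN hearts, and 385 and 297 in controls. The low-line and high-line arrays were all below the controls, with a wide spread. Srxn1 was lower in low-FASN hearts, at -0.94 ± 0.22 on the log2 scale (SE, limma adjusted p = 0.013), and its difference of -0.62 in high-FASN hearts was not called (adjusted p = 0.098). Without the first low-line array the low-line difference was -0.617 and was no longer called (adjusted p = 0.0951), and without the first control array it was -0.759 (adjusted p = 0.104). A second probe set was lower in low-FASN hearts by 0.81 (adjusted p = 0.0101), and the dimmer 1419942_at and 1425351_at gave -0.48 and -0.35, neither called (adjusted p = 0.3 and 0.286).

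In the thioredoxin system, Txnip had the largest positive difference from control among the brightest probe sets of the 41 members in both lines. Txnip binds and inhibits thioredoxin, restrains glucose uptake, and is induced by sugar phosphates through the transcription factor pair MondoA or ChREBP with Mlx, which act at a paired sequence called the carbohydrate response element. The gene lies at chr3:96557957-96561857. The 150 bases before its start are shown because they hold that element, with the match in capitals (RefSeq, GRCm38.p6, chr3:96557807-96557956, + strand).

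Txnip: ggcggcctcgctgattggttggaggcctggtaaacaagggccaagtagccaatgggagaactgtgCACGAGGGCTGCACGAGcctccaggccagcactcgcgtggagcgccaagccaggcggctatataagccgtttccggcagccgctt

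The letters searched were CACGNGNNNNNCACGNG on both strands, chosen after the Txnip values were known. They occur in 16 of 32851 mouse promoters of 300 bases (0.0487%), and Txnip is the single member among the 36 in the promoter table to hold them, 85 bases before its start. A match of letters is a description of the sequence and shows no binding.

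The brightest Txnip probe set read 7904 and 8184 in high-FASN hearts, 5791 and 6089 in low-FASN hearts, and 3676 and 3889 in controls. The 3 groups were fully apart, with the high-FASN line at the top, the low-FASN line in the middle and controls at the bottom. The means were 8044 ± 199 in high-FASN hearts, 5939.9 ± 210 in low-FASN hearts and 3783 ± 151 in controls (SD, n = 2 each). Txnip was higher in high-FASN hearts by 1.09 ± 0.0541 (SE, limma adjusted p = 2.45e-06), in low-FASN hearts by 0.65 ± 0.0541 (adjusted p = 5.03e-05), and in high-FASN over low-FASN hearts by 0.44 ± 0.0541 (adjusted p = 0.00088).

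The second Txnip probe set, 1415997_at, read 1322 and 1297 in high-FASN hearts, 733 and 729 in low-FASN hearts, and 601 and 495 in controls. The order of the groups was the same, and its differences were 1.24 in high-FASN hearts, 0.41 in low-FASN hearts and 0.83 between the lines, all called (limma adjusted p = 4.65e-05, 0.0117 and 0.00061). The 3 Txnip calls held in all 16 alternatives. By size the probe sets differed over 1.5-fold on the log2 scale in low-FASN hearts, where the first gave the larger value, and between the lines, where the second did.

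Txn1, cytosolic thioredoxin, read 3940.5 and 3731 in high-FASN hearts, 4486 and 4600.3 in low-FASN hearts, and 3330.4 and 3931 in controls. The low-FASN line was above all other arrays, by 0.33 against control (limma adjusted p = 0.0123); the call was lost without the first control array or either low-line array. The mitochondrial thioredoxin Txn2 and the reductases Txnrd1 and Txnrd2, which recharge thioredoxin with NADPH, were not called by their brightest probe sets. Other probe sets of Txn2 and Txnrd2 were called lower in low-FASN hearts, at -0.33 (adjusted p = 0.00971) and -0.72 (adjusted p = 0.00531), and both were higher in high-FASN than low-FASN hearts, by 0.29 and 0.75 (adjusted p = 0.021 and 0.00633), so the mitochondrial pair is uncertain.

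**Figure D3:**
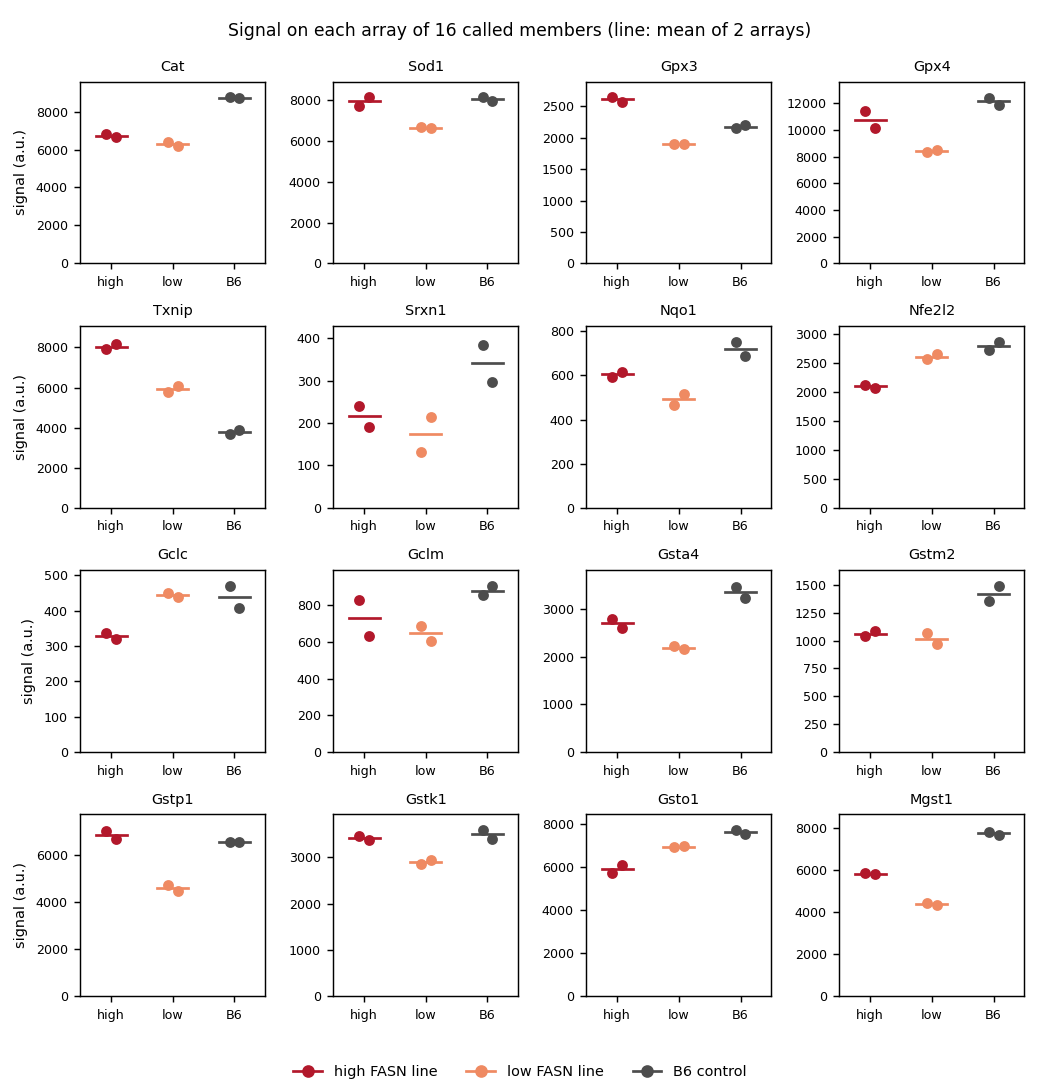
Signal in arbitrary units (linear axes from 0) on each array for 16 members called in at least 1 comparison, with the high-FASN line, the low-FASN line and the B6 controls from left to right and a line at the mean of 2 arrays. Txnip steps down from left to right, Mgst1, Gsta4 and Cat have their controls highest, and Gstp1, Gpx4 and Sod1 are lowest in low-FASN hearts.

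Glutathione is built by glutamate-cysteine ligase, whose catalytic and modifier subunits are Gclc and Gclm, and then by Gss; Gsr returns oxidised glutathione to its reduced form. Gclc read 337 and 318 in high-FASN hearts, 449 and 438 in low-FASN hearts, and 469 and 407 in controls. Both high-line arrays were below all others. Gclc was lower in high-FASN hearts by 0.40 (limma adjusted p = 0.0354) and lower than in low-FASN hearts by 0.42 (adjusted p = 0.0234). A second Gclc probe set gave -4e-04 against control in high-FASN hearts (adjusted p = 0.998) and -0.20 between the lines (adjusted p = 0.464), neither called. Of 16 alternatives 9 lost the brightest probe set's call against control, each of the 4 arrays left out in turn among them. Between the lines the call was also lost without the second high-line array or either low-line array.

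Gclm read 830.5 and 634 in high-FASN hearts, 689 and 608 in low-FASN hearts, and 857 and 904 in controls. It was lower in low-FASN hearts by 0.43 (limma adjusted p = 0.0291), a call lost with any one of its 4 arrays left out. Its second probe set, 1439050_at, read 206 and 203 in high-FASN hearts, 298 and 278 in low-FASN hearts, and 299 and 356 in controls. There the high-FASN line was the low one, at -0.64 against control (adjusted p = 0.0106), while the low-FASN line gave -0.17 (adjusted p = 0.373), and high-FASN hearts were also below low-FASN hearts, at -0.46 (adjusted p = 0.0342). The 2 probe sets therefore assign the lower Gclm signal to different lines. Gss and Gsr were not called by their brightest probe sets, though a second Gss probe set was lower in low-FASN hearts, by 0.62 (adjusted p = 0.0101), and higher in high-FASN than low-FASN hearts, by 0.55 (adjusted p = 0.0227).

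In the NRF2 pathway, Nfe2l2 was lower in high-FASN hearts and Nqo1 in low-FASN hearts. Nfe2l2, which encodes NRF2, read 2114 and 2075 in high-FASN hearts, 2563 and 2649 in low-FASN hearts, and 2724 and 2868 in controls. The high-line arrays were the lowest, and the low-FASN line lay just under the controls. Nfe2l2 was lower in high-FASN hearts, at -0.41 ± 0.0566 on the log2 scale (SE, limma adjusted p = 0.00143) and lower than in low-FASN hearts by 0.31 (adjusted p = 0.00548), and its difference of -0.10 in low-FASN hearts was not called (adjusted p = 0.234). The call between the lines was lost without the second low-line array.

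Nqo1, the quinone reductase often used as a readout of NRF2, read 595 and 615 in high-FASN hearts, 467 and 518 in low-FASN hearts, and 750 and 687 in controls. The low-FASN line was the lowest and controls the highest, with no overlap. Nqo1 was lower in low-FASN hearts, at -0.53 ± 0.0908 on the log2 scale (SE, limma adjusted p = 0.00273), which held in all 15 alternatives, and its -0.24 in high-FASN hearts was not called (adjusted p = 0.114). Hmox1, the inducible heme oxygenase, was dim and not called, and Keap1 was not called by its brightest probe set; the probe set 1450747_at gave -0.52 for Keap1 in low-FASN hearts (adjusted p = 0.0272).

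The antioxidant response element core, TGACNNNGC, was searched on both strands of the 300 bases around each gene's start (250 before and 50 from it). It occurred in 12.4% of all promoters and 14% of all genes, and in 8 of the 36 member genes in the table (22.2%): Gclm, Gstm5, Mgst1, Nfe2l2, Prdx1, Sod1, Srxn1 and Txnrd1. Matches of members with a value are shown in the direction in which the core reads forward, with the core in capitals. By their brightest probe sets, Gclm, Mgst1, Sod1 and Srxn1 were lower in low-FASN hearts, and Nfe2l2 and Mgst1 in high-FASN hearts. Gstm5 and Txnrd1 were called in no comparison.

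Gclm: tcgtgagagtTGACGGTGCgcccgggagc
Mgst1: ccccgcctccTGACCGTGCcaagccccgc
Sod1: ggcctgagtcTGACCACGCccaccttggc
Srxn1: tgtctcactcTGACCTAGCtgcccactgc
Nfe2l2: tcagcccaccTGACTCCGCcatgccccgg
Gstm5: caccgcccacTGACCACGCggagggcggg
Txnrd1: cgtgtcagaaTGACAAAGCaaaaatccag

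These are RefSeq sequences of GRCm38.p6. The Gclm match lies in chr3:122245413-122245441 (- strand), Mgst1 in chr6:138140461-138140489 (- strand), Sod1 in chr16:90220696-90220724 (- strand), Srxn1 in chr2:152105542-152105570 (- strand), Nfe2l2 in chr2:75704885-75704913 (- strand), Gstm5 in chr3:107895802-107895830 (+ strand) and Txnrd1 in chr10:82859104-82859132 (- strand). The Srxn1 match starts 28 bases past its listed start and the others 42 to 240 bases before theirs. For Txnrd1 that start lies inside the gene, which spans chr10:82833951-82897724. Of the 13 members lower in low-FASN hearts that are in the table, 4 hold the core, against 3 of the 17 that were not called there and 0 of the 4 that were higher. In high-FASN hearts 2 of 5 lower members hold it, 5 of 24 not called and 0 of 5 higher. Between the lines the core is in 2 of 8 higher members, 1 of 2 lower and 4 of 24 not called. Whether the core goes with the calls was not tested. The core was not in the Nqo1 window, which says only that these letters are not in those 300 bases.

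Glutathione S-transferases attach glutathione to reactive products such as oxidised lipids. Of the 10 measured, 4 were lower in high-FASN hearts, where 6.18% of all tested and 15.4% of bright probe sets were lower, and 6 in low-FASN hearts, where 10.8% of all and 28.9% of bright ones were. All 10 had a negative difference in low-FASN hearts, with a median of -0.372 that stayed between -0.387 and -0.328 under the 3 other scalings (quantile, median centring and cyclic loess), each with 6 lower. The median in high-FASN hearts was -0.054. Between the lines 5 were higher and 1 lower in high-FASN hearts, against 9.69% and 8.87% of all and 29.1% and 12.8% of bright probe sets. Some of the 10, Gstm2 and Gstz1 among them, were dimmer than those bright probe sets. Members of the mu class are near copies of each other, so probe sets of Gstm1, Gstm2 and Gstm5 may read each other's transcripts.

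Mgst1, a membrane-bound microsomal form, had the most negative difference of the 10 in low-FASN hearts by their brightest probe sets. It read 5853 and 5794 in high-FASN hearts, 4409 and 4316 in low-FASN hearts, and 7824 and 7673 in controls. The 3 groups were fully apart, with means of 5824 ± 41.8 in high-FASN hearts, 4362 ± 65.6 in low-FASN hearts and 7748 ± 107 in controls (SD, n = 2 each). Mgst1 was lower in high-FASN hearts, at -0.41 ± 0.0475 on the log2 scale (SE, limma adjusted p = 0.000584), and in low-FASN hearts, at -0.83 ± 0.0475 (adjusted p = 5.79e-06), and the high-FASN line was above the low-FASN line by 0.42 (adjusted p = 0.000611). All 3 calls held in all 15 alternatives.

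Gsta4, which clears the lipid peroxidation product 4-hydroxynonenal, read 2798 and 2612 in high-FASN hearts, 2224 and 2159 in low-FASN hearts, and 3471 and 3242 in controls. The order was that of Mgst1, with no overlap. The difference was -0.31 in high-FASN hearts (limma adjusted p = 0.00979), -0.61 in low-FASN hearts (adjusted p = 0.000153) and 0.30 between the lines (adjusted p = 0.00959). The low-line call held in all 15 alternatives; the high-line call was lost without the first control array and that between the lines without either low-line array.

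Gstp1, the pi-class enzyme, read 7004 and 6641 in high-FASN hearts, 4698 and 4463 in low-FASN hearts, and 6543 and 6539 in controls. The low-FASN line alone stood apart. Gstp1 was lower in low-FASN hearts, at -0.51 ± 0.0524 on the log2 scale (SE, limma adjusted p = 0.000162) and higher in high-FASN than low-FASN hearts by 0.57 (adjusted p = 0.000199), the largest difference between the lines among the brightest probe sets of the members, and both held in all 15 alternatives. In high-FASN hearts the difference from control was 0.06 (adjusted p = 0.497).

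Gstm1 read 2173 and 1682 in high-FASN hearts, 1357 and 1514 in low-FASN hearts, and 2015 and 2025 in controls. The difference in high-FASN hearts was -0.08, not called (adjusted p = 0.681). The low-line arrays were the lowest, at -0.49 against control (limma adjusted p = 0.0093), and the high-FASN line was above the low-FASN line by 0.41 (adjusted p = 0.027). The low-line call was lost without the first low-line array or either control array, and that between the lines without the first high-line array or either low-line array. A dimmer Gstm1 probe set, 1425627_x_at, read 334 and 189 in high-FASN hearts, 203 and 208 in low-FASN hearts, and 411 and 495 in controls. It was lower in both lines, at -0.80 in high-FASN hearts (adjusted p = 0.0373) and -1.078 in low-FASN hearts (adjusted p = 0.00614), and gave 0.27 between the lines, not called (adjusted p = 0.427). The probe set 1448330_at went with the brightest, at -0.01, -0.37 and 0.36 in these comparisons, the last 2 called (adjusted p = 0.00247 and 0.00412), and 1425626_at was called in none.

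Gstm2 read 1039 and 1089.5 in high-FASN hearts, 1068 and 969 in low-FASN hearts, and 1356 and 1488 in controls. All transgenic arrays were below the controls, by 0.41 in high-FASN hearts (adjusted p = 0.00809) and 0.48 in low-FASN hearts (adjusted p = 0.00226). The high-line call was lost without the second control array. Gstm5 was not called.

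Gstk1, the mitochondrial and peroxisomal kappa form, read 3463 and 3386 in high-FASN hearts, 2848 and 2947 in low-FASN hearts, and 3600.5 and 3389 in controls. It was lower in low-FASN hearts by 0.27 (limma adjusted p = 0.007) and higher in high-FASN than low-FASN hearts by 0.24 (adjusted p = 0.0163). The first call was lost without the first low-line or the first control array and the second without either low-line array. Gsto1, the omega form, went the other way between the lines. It read 5752 and 6112 in high-FASN hearts, 6942 and 6982 in low-FASN hearts, and 7743 and 7578 in controls. The high-FASN line was the lowest, by 0.37 against control (adjusted p = 0.00143) and 0.23 against the low-FASN line (adjusted p = 0.0127). Its second probe set gave -0.13 and 0.01, neither called (adjusted p = 0.328 and 0.948), and the call between the lines was lost without either low-line array. Gstz1 and Mgst3 were not called.

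Glutaredoxins use glutathione to release proteins bound to it. Glrx, the cytosolic form, read 1078 and 936 in high-FASN hearts, 909.5 and 850.1 in low-FASN hearts, and 809.7 and 769.7 in controls. It was higher in high-FASN hearts by 0.34 (limma adjusted p = 0.0296). Its second probe set, 1416593_at, read 494 and 434 in high-FASN hearts, 449 and 547 in low-FASN hearts, and 365 and 362 in controls. There the low-FASN line was called higher, by 0.43 (adjusted p = 0.0249), and the high-FASN line, at 0.34, was not (adjusted p = 0.0905). Glrx5, which serves mitochondrial iron-sulfur cluster assembly, read 5419 and 5352 in high-FASN hearts, 5037 and 4886 in low-FASN hearts, and 4841 and 4658 in controls. It was higher in high-FASN hearts by 0.18 (adjusted p = 0.0408). By the brightest probe sets the high-line arrays were the top ones for both genes, yet 8 of 16 alternatives lost the Glrx call and 7 of 15 that of Glrx5, including either control array and the first high-line array left out. Glrx2, Glrx3 and Msra, the methionine sulfoxide reductase, were not called by their brightest probe sets. The probe set 1437680_x_at gave 0.34 for Glrx2 in high-FASN hearts and 0.41 between the lines, both called (adjusted p = 0.0254 and 0.00919).

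The 18 members called in no comparison by their brightest probe sets had mean signals from 50.3 to 10581. Their differences ran from -0.318 to 0.198 in high-FASN hearts, from -0.4 to 0.219 in low-FASN hearts and from -0.276 to 0.232 between the lines. Of the 44 calls listed for members, the second Nnt probe set included, 14 held in every alternative that was run. These were the 3 of Txnip, the 3 of Mgst1, and the differences between the lines of Gpx3 and Gstp1. The rest were the low-line calls of Cat, Gpx4, Nqo1, Gsta4, Gstm2 and Gstp1. Mgst1, Gpx3, Gstp1, Nqo1, Gsta4 and Gstm2 had only 1 tested probe set each. Their calls could therefore not be set against a second probe set, as those of Txnip, Cat and Gpx4 were. Heart muscle markers were called higher for 9 of 12 in high-FASN hearts and lower for 3 of 12 in low-FASN hearts. Between the lines 10 of 12 were higher in high-FASN hearts. The shares of all tested probe sets with these calls were 8.18%, 10.8% and 9.69%. Those of bright probe sets were 15.2%, 28.9% and 29.1%.

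Markers of other cell types were called too. Of all tested probe sets, 8.18% were higher and 6.18% lower in high-FASN hearts, and 13.5% and 10.8% in low-FASN hearts. Between the lines 9.69% were higher and 8.87% lower. Fibroblast markers were higher for 7 of 10 in high-FASN and 8 of 10 in low-FASN hearts, and airway markers for 5 of 7 and 1 of 7. The airway count in low-FASN hearts is near the share of all probe sets. Macrophage markers were lower for 4 of 10 in high-FASN hearts, higher for 3 and lower for 1 of 10 in low-FASN hearts, and lower for 6 of 10 in high-FASN than low-FASN hearts. They summed to 13254 and 13403 in high-FASN hearts, 16432 and 16967 in low-FASN hearts, and 14984 and 14839 in controls, with no overlap. Endothelial markers were higher for 3 of 7 in each line, with sums of 6725 and 6430 in high-FASN hearts, 6974 and 7044 in low-FASN hearts, and 5447 and 5293 in controls.

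A sign of RNA quality also separated the groups, the ratio of signal at the 3' end to that at the 5' end of control transcripts. The ratio for Gapdh was 0.905 and 0.881 in high-FASN hearts, 0.813 and 0.798 in low-FASN hearts, and 0.954 and 0.953 in controls. For beta-actin it was 2.52 and 2.40 in high-FASN hearts, 2.31 and 2.32 in low-FASN hearts, and 2.62 and 2.71 in controls. Neither ratio overlapped between groups, and both were highest in controls and lowest in low-FASN hearts. Mgst1, Gsta4, Nqo1, Cat, Gpx4, Gss and the dim Glrx3 had the same order of signal by their brightest probe sets, without overlap. Genes outside the members had it too, Sqstm1, Mafk, Oplah and Ggct among them. The share of all tested probe sets with this order is not given here. Whether it is more frequent among the members is therefore not known. The part of these ratios and of the marker lists in the members' differences was not tested.

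NADPH feeds both recharging systems, and its supply genes were measured apart from the members. Of 22 listed, 21 had a probe set of their own and were tested, without G6pdx of the pentose phosphate pathway among them. Of the 21, 3 were higher and 1 lower in high-FASN hearts, and 7 higher and 5 lower in low-FASN hearts. Between the lines 4 were higher and 1 lower. Over all tested probe sets 8.18% were higher and 6.18% lower in high-FASN hearts, 13.5% and 10.8% in low-FASN hearts, and 9.69% and 8.87% between the lines. Tkt, the transketolase of the pentose phosphate pathway, read 7125 and 6610.4 in high-FASN hearts, 2610.2 and 2739 in low-FASN hearts, and 1804 and 1467 in controls. The groups were fully apart with the high-FASN line highest, at 2.07 ± 0.0898 (SE) against control in high-FASN hearts (limma adjusted p = 9.29e-07), 0.71 in low-FASN hearts (adjusted p = 0.000517) and 1.35 between the lines (adjusted p = 4.37e-05).

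Pgd, the pathway enzyme that makes NADPH from 6-phosphogluconate, read 1004 and 1061 in high-FASN hearts, 648 and 694 in low-FASN hearts, and 1066 and 918 in controls. It was lower in low-FASN hearts by 0.55 (limma adjusted p = 0.00202) and higher in high-FASN than low-FASN hearts by 0.61 (adjusted p = 0.00192). Aldh1l2, a mitochondrial folate enzyme that makes NADPH, read 221 and 268 in high-FASN hearts, 346 and 313 in low-FASN hearts, and 196 and 163 in controls, and was higher in low-FASN hearts by 0.83 (adjusted p = 0.00341). Glud1, mitochondrial glutamate dehydrogenase, read 2235 and 2098 in high-FASN hearts, 2979 and 2993 in low-FASN hearts, and 2121 and 2106 in controls. It was higher in low-FASN hearts by 0.50 (adjusted p = 0.000309) and lower in high-FASN than low-FASN hearts by 0.46 (adjusted p = 0.000876).

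Among other regulators and targets of NRF2, 23 tested genes gave 1 higher and 5 lower in high-FASN hearts, 4 higher and 10 lower in low-FASN hearts, and 4 higher and 1 lower between the lines. Of all tested probe sets, 8.18% were higher and 6.18% lower in high-FASN hearts, and 13.5% and 10.8% in low-FASN hearts. Between the lines these shares were 9.69% and 8.87%. Maff, a small MAF protein that pairs with NRF2, read 112 and 110.4 in high-FASN hearts, 119.5 and 70.7 in low-FASN hearts, and 260.2 and 220 in controls. Both lines were below control, by 1.01 in high-FASN hearts (limma adjusted p = 0.0157) and 1.24 in low-FASN hearts (adjusted p = 0.00349). Mafk, its relative, read 475 and 482 in high-FASN hearts, 405 and 384 in low-FASN hearts, and 638 and 782 in controls, and was lower by 0.55 in high-FASN hearts (adjusted p = 0.0098) and 0.81 in low-FASN hearts (adjusted p = 0.000706).

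Sqstm1, the autophagy receptor p62 that competes with NRF2 for Keap1, read 1860.4 and 2051 in high-FASN hearts, 1616 and 1563 in low-FASN hearts, and 2602 and 2379.6 in controls. It was lower in high-FASN hearts by 0.35 (limma adjusted p = 0.0113) and in low-FASN hearts by 0.64 (adjusted p = 0.000252), and the high-FASN line was above the low-FASN line by 0.29 (adjusted p = 0.0192). Aldh3a2, a fatty aldehyde dehydrogenase, read 218 and 204 in high-FASN hearts, 261 and 276 in low-FASN hearts, and 154 and 177 in controls. It was higher in low-FASN hearts by 0.65 (adjusted p = 0.00763). Genes of this list thus moved in both directions within low-FASN hearts, with 4 of 23 higher beside 13.5% of all tested probe sets.

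**Figure D4:**
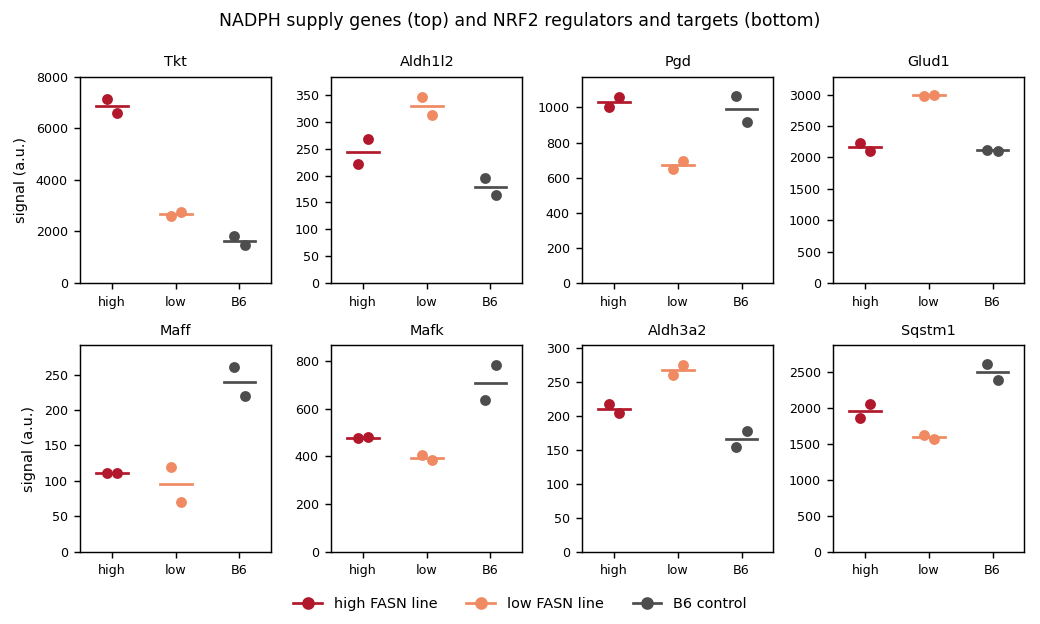
Signal in arbitrary units (linear axes from 0) on each array for 4 genes of NADPH supply (top) and 4 regulators and targets of NRF2 (bottom), with the high-FASN line, the low-FASN line and the B6 controls from left to right and a line at the mean of 2 arrays. Tkt reads 7125 and 6610 in high-FASN hearts, against 1804 and 1467 in controls, and both MAF genes have their controls highest.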

How the data were processed

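RNA from hearts was labelled with biotin and read on 6 Affymetrix arrays. The authors deposited 1 table of linear signal intensity per probe set, made with GCOS per the submitters' processing notes; for its version, algorithm and scaling target the sources used here give nothing. All columns have a 2% trimmed mean of 300.002, so the deposited scaling was kept. Of 45101 probe sets, 64 were controls, 34945 had 1 gene symbol in the platform annotation, 932 had several and 9160 were not listed; genes are named from the first kind. Values were taken as log2(signal + 16). The 22519 probe sets with a mean at or above the median (signal 47) were fitted with 3 group means in limma 3.58.1 (R 4.3.3; eBayes with trend, 3 residual and 6.43 prior degrees of freedom), with Benjamini-Hochberg adjustment over all of them. The number of arrays limits the precision. Values on each array are given for all Nnt probe sets and for called members, and for the 4 called genes with the largest difference of each other list. Promoters come from RefSeq tables of GRCm38.p6, where 36 of 44 members matched; motifs other than the antioxidant response element, and the comparison with bright probe sets, were chosen after the values were seen. The members and lists were chosen with earlier results of these data known. Alternatives were other scalings, pseudocounts, filters and variance models, other probe sets, a replicate block and each array left out. Figures used matplotlib 3.10.9 (Python 3.11.15).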

Additional observations from a re-analysis of the deposited data

Results flagged for a closer look

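By their brightest probe sets, for 12 members the high-FASN and low-FASN lines differed from the shared controls by unlike amounts, by limma's test of high-FASN against low-FASN hearts (adjusted p below 0.05 over all tested probe sets, 2 arrays a line). Gpx3 and Txnip had a higher signal in high-FASN than low-FASN hearts by 0.454 and 0.437 on the log2 scale. Gpx3 was on opposite sides of control in the lines, and Txnip was above control in both. Mgst1 and Gsta4 were below control in both lines and less so in high-FASN hearts, by 0.416 and 0.301. Gstp1, Gstm1, Gpx4, Sod1 and Gstk1 were called lower in low-FASN hearts and not called in high-FASN hearts, and the lines differed by 0.573, 0.412, 0.35, 0.256 and 0.24. The other 3 members had the lower signal in high-FASN hearts, Gclc with a difference of -0.42, Nfe2l2 with -0.313 and Gsto1 with -0.231. Of the 41 members tested this way, 9 were higher and 3 lower (22% and 7.32%). Of all tested probe sets 9.69% were higher and 8.87% lower, and of the bright ones 29.1% and 12.8%.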

How the results depend on the processing

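Of 678 recomputed values for the 44 member calls, 534 kept their direction and call, 139 lost the call and 5 turned direction. These 5 concern probe sets: Prdx4 gave -0.553 in high-FASN and -0.227 in low-FASN hearts as a median over probe sets and -0.589 and -0.227 by its second probe set, and Gsto1 gave 0.011 between the lines by its second. Counts that moved by over 1.5 times follow. In high-FASN hearts, median centring, no filter on dim probe sets and the 4 compared arrays alone each gave 3 members higher, and the second brightest probe sets (23 members) gave 1 higher and 3 lower. In low-FASN hearts, median centring, no filter and second probe sets each gave 2 higher. Between the lines, cyclic loess and a filter at the 75th percentile each gave 5 lower, and second probe sets 1. Without a variance trend, members higher and lower were 1 and 1 in high-FASN hearts, 1 and 7 in low-FASN hearts, and 4 and 0 between the lines, and all probe sets called were 1233, 3576 and 1449, against 3234, 5475 and 4179. With each array left out, members higher ranged from 1 to 5, 1 to 2 and 4 to 13 in these comparisons, members lower from 5 to 8, 8 to 11 and 0 to 4, and all called probe sets from 1398 to 3493, 2897 to 3392 and 1553 to 4158. A group left with 1 array was assumed to vary like the others. The replicate number paired no arrays by the labels, and deviations of same-numbered arrays correlated at 0.04, 0.027 and 0; a replicate block gave 9 higher and 5 lower between the lines, 5 and 7 in high-FASN hearts and 4 and 14 in low-FASN hearts. The cause of these changes was not tested beyond the fewer arrays or genes used. Alternatives were run for the members and not for the other gene lists. Detection calls were not used here, so signal over background is known from the intensity alone.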

Other observations

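Other glutathione genes were measured apart from the members, and several of their counts lie near the shares of all probe sets. Of 22 tested, 2 were higher and 2 lower in high-FASN hearts, 3 higher and 6 lower in low-FASN hearts, and 3 higher and 2 lower between the lines. Over all tested probe sets these shares were 8.18% and 6.18%, 13.5% and 10.8%, and 9.69% and 8.87%. Gsta3, an alpha-class transferase, read 102 and 98.5 in high-FASN hearts, 94.4 and 81.9 in low-FASN hearts, and 198 and 163 in controls. It was lower in both lines, by 0.75 and 0.91 in high-FASN and low-FASN hearts (limma adjusted p = 0.0234 and 0.00584). Oplah, which returns 5-oxoproline to glutamate for glutathione synthesis, read 547 and 504 in high-FASN hearts, 328 and 366 in low-FASN hearts, and 621 and 634 in controls, and was lower in low-FASN hearts by 0.83 (adjusted p = 0.000331) and higher in high-FASN than low-FASN hearts by 0.58 (adjusted p = 0.00366). Ggct, the step before it, read 1202 and 1189 in high-FASN hearts, 791 and 839.5 in low-FASN hearts, and 1280.1 and 1341 in controls, with -0.67 in low-FASN hearts (adjusted p = 0.000161) and 0.54 between the lines (adjusted p = 0.000979). Chac1, which degrades glutathione, read 210 and 183 in high-FASN hearts, 162 and 153 in low-FASN hearts, and 104 and 120.1 in controls, and was higher in high-FASN hearts by 0.73 (adjusted p = 0.0157).

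Of 25 other redox repair genes tested, 5 were higher and 4 lower in high-FASN hearts, 7 higher and 5 lower in low-FASN hearts, and 6 higher and 6 lower between the lines, beside the same shares of all probe sets. Sesn1, a stress-induced sestrin, read 3496 and 4012 in high-FASN hearts, 4867 and 4832 in low-FASN hearts, and 6516 and 6289 in controls. All groups were apart, with differences of -0.77 in high-FASN hearts (limma adjusted p = 0.000103), -0.40 in low-FASN hearts (adjusted p = 0.00242) and -0.37 between the lines (adjusted p = 0.00532). Its relative Sesn3 went the other way, reading 363 and 344 in high-FASN hearts, 338 and 341 in low-FASN hearts, and 246 and 188 in controls, by 0.68 in high-FASN hearts and 0.62 in low-FASN hearts (adjusted p = 0.0109 and 0.00974). Ucp3, a mitochondrial uncoupling protein linked to fatty acid use, read 556 and 531 in high-FASN hearts, 627 and 642 in low-FASN hearts, and 422 and 346 in controls, and was higher by 0.49 and 0.71 in high-FASN and low-FASN hearts (adjusted p = 0.0149 and 0.00137). Selenow, a small selenoprotein of muscle, read 2424 and 2278 in high-FASN hearts, 1690.5 and 1684 in low-FASN hearts, and 2679 and 2477 in controls, and was lower in low-FASN hearts by 0.61 (adjusted p = 0.000181) and higher in high-FASN than low-FASN hearts by 0.47 (adjusted p = 0.00128).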
